A study of Rattus norvegicus with 18 samples.

Results

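The nuclear genes named for NADH:ubiquinone oxidoreductase, the respiratory complex I, were followed through 5 groups of rat tibialis anterior, a mainly fast-twitch muscle of the lower leg. All entries of the count table whose symbol begins with Nduf and continues with a, b, c, s, v, ab or af and a digit were taken, which gave 48 of 30560 entries under 45 symbols. Of these, 36 entries (34 symbols) were subunits of the complex, 7 were the assembly factors Ndufaf1 to Ndufaf7, and 5 carried the name without being counted as rat complex I subunits here. The subunits comprised 7 core subunits of the matrix arm, 9 accessory entries of the matrix arm, 19 accessory entries of the membrane arm, and Ndufab1, which sits in both arms. Ndufb1, Ndufb9 and Ndufaf8 are not analysed here. RefSeq gives Ndufa10 as another name of Ndufa10l1, whose 2 entries are among those counted apart.

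Rats aged 9 months gave 6 libraries of the p16-null DMD genotype, 3 of DMD and 3 of wild type (WT). WT rats of 3 months and of 18 months gave 3 libraries each. DMD rats are a model of Duchenne muscular dystrophy, in which the muscle lacks working dystrophin, and the p16-null DMD rats carry the DMD genotype and in addition a null allele of p16, a cell cycle inhibitor and marker of senescent cells. The labels name these genotypes without the alleles and give neither strain nor sex, and the muscle had been frozen and cut into sections. Nothing states that each library came from a separate animal, and the p-values speak only of how these libraries vary, which may be technical.

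Complex I takes electrons from NADH, passes them along a flavin and a chain of iron-sulphur clusters in its matrix arm to ubiquinone, and uses the energy to pump protons through its membrane arm. Its core subunits are shared with bacteria, and in mammals those of the matrix arm are encoded in the nucleus and those of the membrane arm by mitochondrial DNA. The accessory subunits surround this core, and the assembly factors help to build the complex and are absent from the finished enzyme. Muscle fibres make their mitochondrial proteins under the control of the coactivators of the Ppargc1 family and of factors such as Esrra, Nrf1, Gabpa and Yy1.

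The start regions of the members were searched for the letters that such factors are known to bind, because these genes are described below as moving together. Promoter windows of RefSeq (assembly GRCr8, 250 bases before to 50 bases after the start) were found for 38 of the 41 member symbols looked for, with Ndufa8 and Ndufaf6 among those missing from the table. Both strands were read. The YY1 motif searched, printed in capitals in the first 4 stretches that follow, stood in 7 of 38 member windows (18.4%), against 226 of 33469 windows of all genes (0.675%). All 7 matches were on the gene's own strand, between 5 and 37 bases after the start. The NRF1 motif, printed in capitals in the last 2 stretches and read with any base after the letters GCGCA, stood in 9 member windows (23.7%), against 4.25% of all windows, and the ETS letters CCGGAAG, to which Gabpa binds, in 8 member windows (21.1%), against 8.75%. The ERR letters TCAAGGTCA were in 0 of the 38 member windows, against 0.433% of all windows. Apart from 2 overlapping NRF1 matches in Ndufa11, no matches in member windows overlapped. Matches are letters only and no binding was measured.

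The following stretches show the match in capitals, 5′ to 3′ on the gene's strand and numbered from the start at +1. The 4 windows shown with the YY1 letters are those of Ndufa9, Ndufs7, Ndufs4 and Ndufa6. Their log2 fold changes in DMD over WT ran from −1.85 (Ndufa9) to −1.12 (Ndufs4). The 2 shown with the NRF1 letters are those of Ndufa11, where 2 matches overlap, and Ndufa5.
Ndufa9 (chr4:161374146-161374210, minus strand, bases -40 to +25): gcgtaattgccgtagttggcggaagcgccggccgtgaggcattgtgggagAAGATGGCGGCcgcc
Ndufs7 (chr7:10110474-10110538, minus strand, bases -40 to +25): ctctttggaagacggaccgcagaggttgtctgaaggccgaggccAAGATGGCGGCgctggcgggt
Ndufs4 (chr2:47794890-47794954, minus strand, bases -40 to +25): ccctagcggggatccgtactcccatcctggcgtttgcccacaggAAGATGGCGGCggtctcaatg
Ndufa6 (chr7:115750288-115750357, minus strand, bases -40 to +30): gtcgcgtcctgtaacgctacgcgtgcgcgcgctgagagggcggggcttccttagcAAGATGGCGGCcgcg
Ndufa11 (chr9:1637504-1637553, plus strand, bases -110 to -61): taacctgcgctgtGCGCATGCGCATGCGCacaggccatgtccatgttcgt
Ndufa5 (chr4:53971236-53971295, minus strand, bases -60 to -1): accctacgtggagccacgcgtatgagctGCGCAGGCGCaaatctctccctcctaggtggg

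Library totals ran from 9.61M to 21.99M estimated counts. Levels are given as CPM, counts scaled to a common library size, on 1 scale for all 18 libraries, set by TMM, a scaling to the trimmed mean of the gene ratios. Dmd, the dystrophin gene, had 30.9, 41.9 and 54.1 CPM (lowest, median and highest) in p16-null DMD muscles and 31.4, 44.3 and 34.9 CPM in DMD muscles, against 113.6, 139.5 and 167.5 CPM in WT muscles of 9 months. Cdkn2a, the gene of p16, had 10.1, 12.01 and 15.3 CPM (lowest, median and highest) in p16-null DMD muscles and 10.7, 19.4 and 12.7 CPM in DMD muscles, and at most 0.299 CPM in any WT library. The gene's count also takes in its second product Arf, so it could not check the p16 label. Some libraries were often the highest or lowest of their group. The p16-null DMD replicate 4, with the deepest sequencing, had the highest level of all 7 core subunits among the 6 p16-null DMD libraries. An outlier check of the 6 p16-null DMD libraries flagged 0 of 29 genes checked. WT replicate 3 of 3 months had the highest level of 33 of 34 tested subunits in its group. DMD replicate 3 had the lowest level of 30 of the 34 subunits among the DMD libraries. In WT of 18 months replicate 3 was the highest in 28 subunits and replicate 1 the lowest in 27, and in WT of 9 months replicate 3 was the lowest in 25.

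In DMD muscle the complex I transcripts were lower almost without exception. At 9 months 33 of 34 tested subunit entries fell in DMD compared with WT, 0 rose, and the median log2 fold change was −1.42 (from −2.10 for Ndufs1 to −0.48 for an Ndufs5 entry). Over all 14801 genes tested, 21.8% fell and 26.4% rose, and the median log2 fold change was 0.11. With libraries scaled by their totals in place of TMM the subunit median was −0.79 (27 fell) beside 0.76 for all genes, and on log2(TPM + 1) it was −0.75 (25 fell) beside 0.64 for all genes. In 33 of the 34 subunits every DMD library lay below every WT library in CPM, which held for 25.7% of all genes. In TPM the libraries of Ndufs4, Ndufv3 and Ndufa1 overlapped too. Summed over the subunits, the level was 2440, 2446 and 1860 CPM in the 3 DMD libraries, against 6660, 7137 and 5833 CPM in the 3 WT libraries. These sums do not overlap. Counts and tests are edgeR's quasi-likelihood test with Benjamini-Hochberg adjustment over all genes, and a change means an adjusted p under 0.05. In bulk muscle, fewer fibres and less RNA per fibre cannot be told apart.

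All 7 core subunits of the matrix arm fell, with a median log2 fold change of −1.77 and a narrow range from −2.10 to −1.67. Ndufs1, the large iron-sulphur subunit of the part that oxidises NADH, had 182, 103.9 and 100.2 CPM in DMD muscles, against 486, 673 and 511 CPM in WT muscles. It stood at 23.3% of the WT level in DMD (log2 fold change −2.10 ± 0.27 SE, adjusted p = 2.6e-05). Ndufs7, which lines the ubiquinone site, had 117.6, 114.3 and 88.6 CPM in DMD and 426, 388 and 307 CPM in WT (−1.80 ± 0.22, adjusted p = 1.7e-05). In neither gene did the DMD and WT libraries overlap.

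The subunits around the flavin moved by a like amount. Ndufv1, which binds the flavin and NADH, averaged 99.8 ± 9.47 CPM in DMD and 318 ± 42.7 CPM in WT (SD, n = 3 each) and had a log2 fold change of −1.67 ± 0.22 (SE, adjusted p = 3e-05). Ndufv2, an iron-sulphur subunit beside it, averaged 130.3 ± 19.9 CPM in DMD and 446 ± 56.7 CPM in WT (−1.77 ± 0.18, adjusted p = 4.9e-06). Ndufs3 of the ubiquinone part (−1.73 ± 0.19) and Ndufs8, another carrier of iron-sulphur clusters (−1.67 ± 0.20), fell to a like degree.

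**Figure D1:**
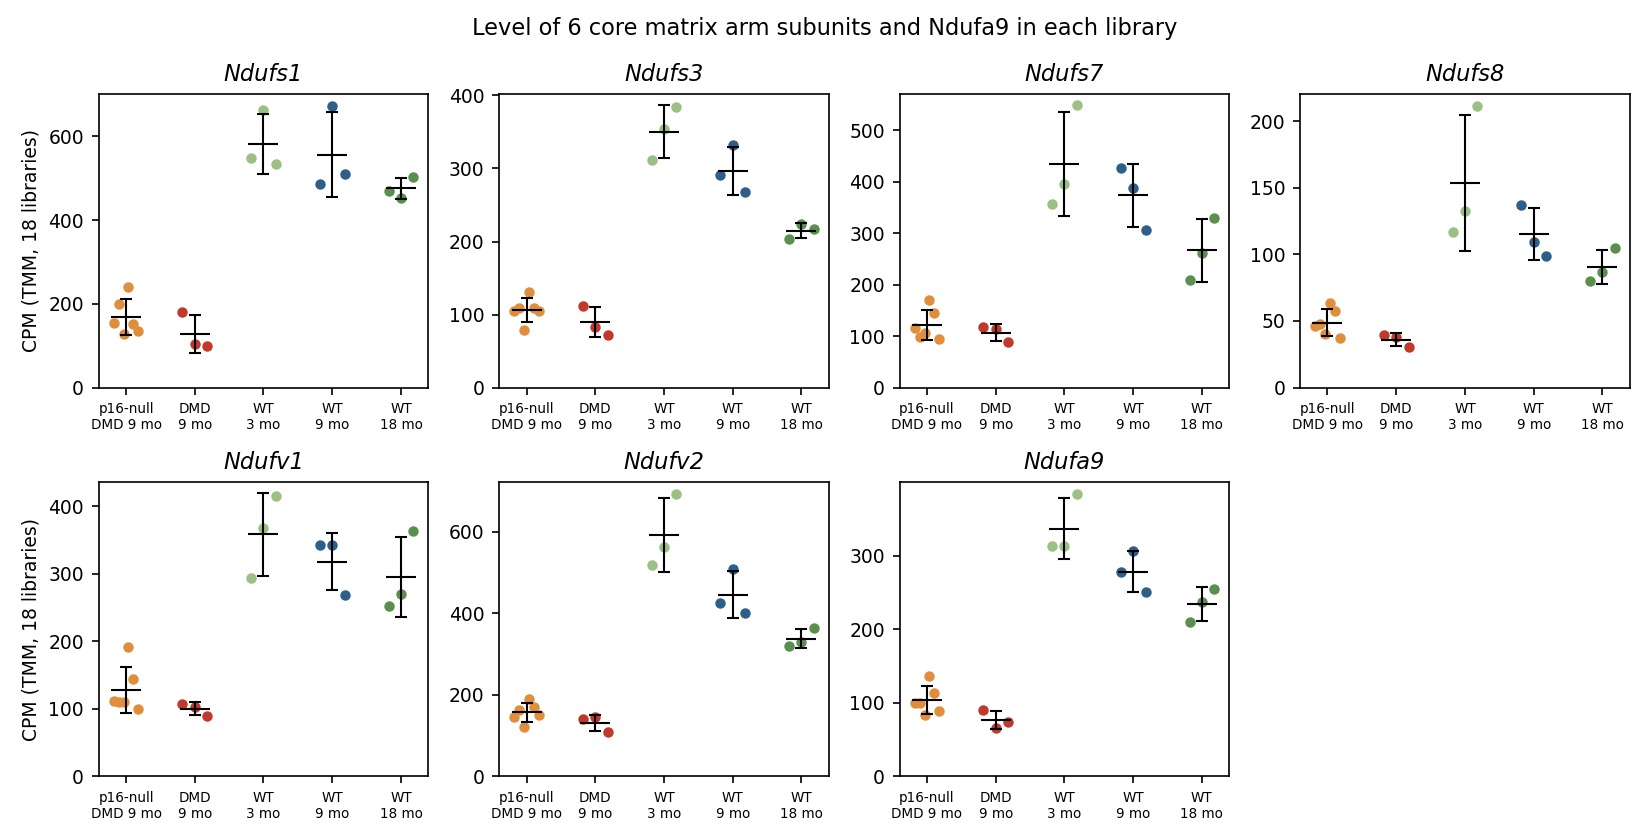
Level of 6 core matrix arm subunits and Ndufa9 in each of the 18 libraries, as CPM scaled by TMM, with the mean and SD of each group as a bar with caps. The p16-null DMD and DMD libraries lie below the WT libraries of 3, 9 and 18 months in all 7 panels, and p16-null DMD replicate 4 is the highest of its group.

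Among the accessory subunits of the matrix arm 8 of 8 tested entries fell, with a median log2 fold change of −1.12 (range −1.85 to −0.92), and apart from Ndufa9 all had log2 fold changes of −1.25 or closer to 0. Ndufa9, which lies at the joint of both arms and marks the complex in protein gels, had 90.2, 66.0 and 74.0 CPM in DMD muscles, against 277, 306 and 250.2 CPM in WT muscles (−1.85 ± 0.19, adjusted p = 4.5e-06). Ndufs4, an accessory subunit whose loss gives a Leigh-like disease in mice, had 63.1, 78.3 and 51.9 CPM in DMD muscles, against 133, 151.1 and 138 CPM in WT muscles, and stood at 46.0% of WT (−1.12 ± 0.19, adjusted p = 2.2e-04). Ndufa2 (−0.94 ± 0.19) and Ndufa7 (−0.92 ± 0.15) were among the 4 subunits with the smallest change. In CPM all DMD libraries lay below all WT libraries in each of these genes. In TPM those of Ndufs4 overlapped (77.9 to 128.8 in DMD, 116.2 to 134 in WT), and those of Ndufa9, Ndufa2 and Ndufa7 did not.

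In the membrane arm 17 of 18 accessory entries fell, with a median log2 fold change of −1.36 (range −1.73 to −0.48). Ndufab1, the mitochondrial acyl carrier protein that is bound in both arms, had 55.5, 47.7 and 48.7 CPM in DMD muscles, against 218, 200.4 and 159.8 CPM in WT muscles, and its log2 fold change of −1.92 ± 0.18 was second to that of Ndufs1 among the subunits (adjusted p = 2.5e-06). Ndufb4 of the outer membrane arm averaged 61.2 ± 6.27 CPM in DMD and 188.9 ± 12.1 CPM in WT (−1.62 ± 0.14, adjusted p = 1.6e-06). Ndufa1, a small subunit of the membrane arm, fell less (−0.93 ± 0.19, adjusted p = 0.001). The entry that did not pass the test was the lower of 2 entries under the symbol Ndufs5, with 12.9, 14.9 and 6.37 CPM in DMD and 12.4, 18.5 and 17.1 CPM in WT (−0.48 ± 0.31, adjusted p = 0.21). The other Ndufs5 entry fell (−1.16 ± 0.20, adjusted p = 2.7e-04). RefSeq lists a pseudogene of Ndufs5, so reads of the 2 entries may have been shared between copies and their values are uncertain.

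The 7 assembly factors also fell in DMD, with a median log2 fold change of −1.04 (range −1.65 to −0.65). Ndufaf1, a factor of the early membrane arm, had 6.19, 5.23 and 4.84 CPM in DMD muscles, against 15.7, 17.6 and 17.9 CPM in WT muscles (−1.65 ± 0.26, adjusted p = 1.1e-04). Ndufaf2, which holds the place of Ndufa12 during assembly, had 3.98, 6.56 and 5.03 CPM in DMD and 12.9, 17.3 and 15.2 CPM in WT (−1.53 ± 0.28, adjusted p = 4.3e-04). Both genes were in every DMD library below every WT library. The partners Ndufaf3 (−1.04 ± 0.17) and Ndufaf4 (−0.90 ± 0.30), Ndufaf5, which hydroxylates Ndufs7 (−1.07 ± 0.20), and Ndufaf6 (−1.02 ± 0.28) were close to the median. Ndufaf7, a methyltransferase, averaged 12.2 ± 0.610 CPM in DMD and 19.3 ± 1.42 CPM in WT (SD, n = 3 each), and its change was the smallest of the 7 (−0.65 ± 0.20, adjusted p = 0.015, but 0.08 on log2 TPM). Leaving out either WT replicate 2 (−0.59, adjusted p = 0.054) or DMD replicate 3 (−0.60, adjusted p = 0.055) left Ndufaf7 above an adjusted p of 0.05, and the same held for Ndufaf4 with WT replicate 2 (−0.72, adjusted p = 0.096) or DMD replicate 1 (−0.72, adjusted p = 0.086). With libraries scaled by their totals in place of TMM, 3 of the 7 factors fell, and on log2 TPM 2 of them.

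Of 12 tested assembly factors with other names 10 fell in DMD, with a median log2 fold change of −1.12. Ecsit, which works with Ndufaf1 in the same assembly complex, had 44.4, 35.2 and 29.8 CPM in DMD and 138.3, 126.6 and 119.3 CPM in WT (−1.80 ± 0.19, adjusted p = 6.6e-06). Nubpl, which delivers iron-sulphur clusters, had a log2 fold change of −0.02 ± 0.34 (adjusted p = 0.97).

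The genes around complex I moved with it. All 7 complex I genes of mitochondrial DNA fell in DMD, with a median log2 fold change of −1.69 (range −1.85 to −1.28), as did 36 of 41 nuclear genes of complexes II to V (1 rose, median −1.51) and 61 of 70 genes of the mitochondrial ribosome (median −0.98). Of 9 regulators 6 fell, 0 rose and 3 did not pass. Perm1, a muscle regulator of mitochondrial genes, had a log2 fold change of −2.88 ± 0.41, with 36.5, 14.8 and 15.4 CPM in DMD and 174, 186.1 and 133.5 CPM in WT. Esrra fell by 1.71 ± 0.26 and Ppargc1a by 1.22 ± 0.29. Yy1, Nrf1 and Gabpa, whose letters were searched above, averaged 19.8, 21.8 and 31.1 CPM in DMD, against 19.1, 15.5 and 37.9 CPM in WT. The median log2 fold change in DMD was −1.35 for subunits with YY1 letters (6 subunits) and −1.42 without (24 subunits). For NRF1 letters it was −1.25 with (5 subunits) and −1.46 without (25 subunits). For ETS letters it was −1.24 with (7 subunits) and −1.46 without (23 subunits). These differences were not tested.

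Markers of other cells moved in the same comparison. All 7 fast fibre markers fell, with summed levels of 37070 to 57540 CPM in DMD and 133000 to 149900 CPM in WT. All 10 macrophage markers rose (2542 to 3987 CPM in DMD, 429 to 485 CPM in WT), as did all 8 fibroblast markers (5940 to 11450 CPM in DMD, 2312 to 2464 CPM in WT) and 4 of 5 markers of regenerating fibres. All 4 adipocyte markers rose as well (491.3 to 522.4 CPM in DMD, 27.96 to 52.76 CPM in WT), while 1 of 7 slow fibre markers and 2 of 5 endothelial markers fell. No marker of these lists was at 0 throughout a group. Relative to the fast fibre markers, the summed subunits were 4.25 to 6.04% in DMD and 4.35 to 5.37% in WT, so these ranges overlapped. The part of these cell types in the fall of the complex I transcripts was not tested.

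**Figure D2:**
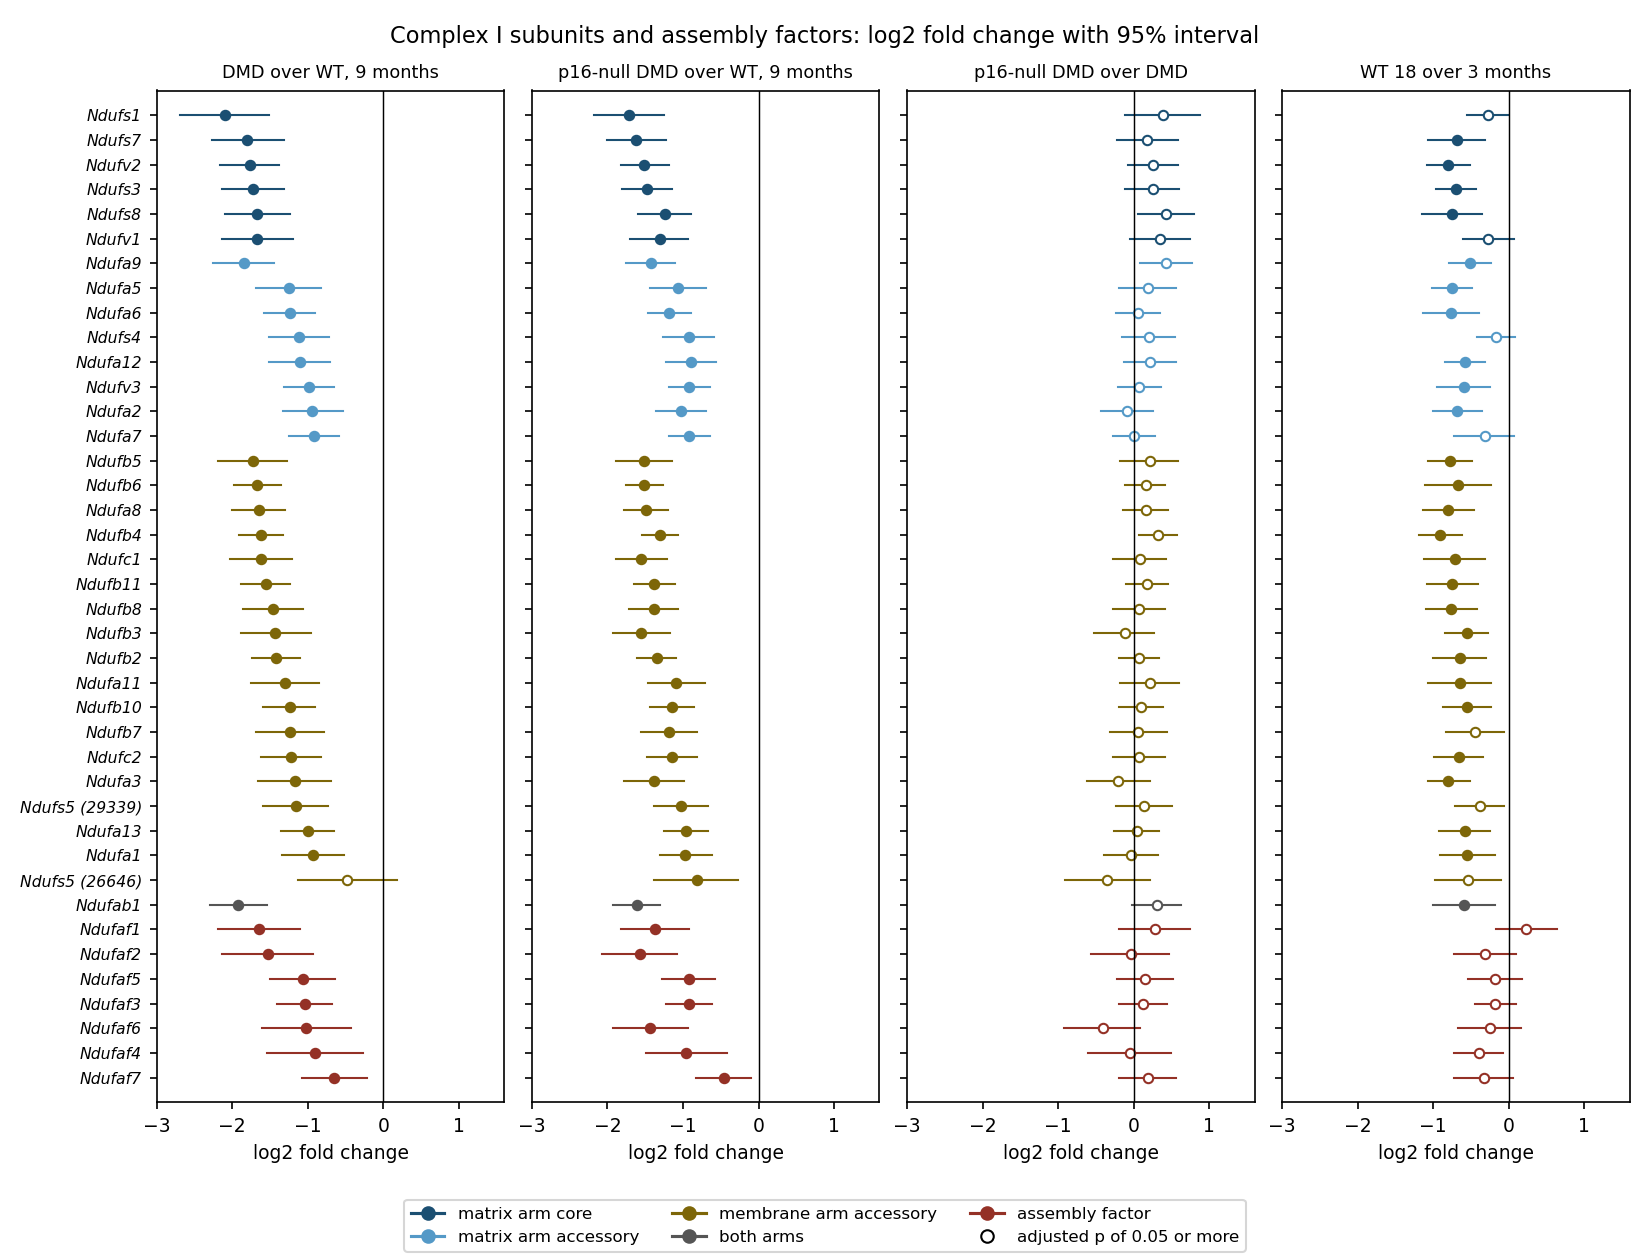
Log2 fold change (horizontal axis) with its 95% interval for 33 of the 34 tested subunit entries and for 7 assembly factors in the 4 comparisons, coloured by place in the complex; filled points passed an adjusted p of 0.05. The subunits shown are all filled but the lower Ndufs5 entry for DMD over WT, all filled for p16-null DMD over WT, all open for p16-null DMD over DMD, and filled but for 7 for WT at 18 over 3 months. The number beside Ndufs5 is the end of its gene identifier.

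In p16-null DMD muscle the complex I transcripts were also below WT. All 34 tested subunits fell (22.7% of all genes fell and 27.5% rose), with a median log2 fold change of −1.31 (range −1.72 to −0.82), and all 7 assembly factors fell, with a median of −0.96 (range −1.57 to −0.46). The subunit median was −0.70 (28 fell) with scaling by totals, beside 0.72 for all genes, and −0.54 (24 fell) on log2(TPM + 1), beside 0.64 for all genes. The summed subunits had 2164, 2575 and 3101 CPM (lowest, median and highest of 6) in p16-null DMD, against 6660, 7137 and 5833 CPM in WT. The groups did not overlap. These WT libraries are the same as in the comparison of DMD with WT, so both comparisons share their controls.

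The markers of other cells also moved between p16-null DMD and WT. All 7 fast fibre markers fell (30430 to 65580 CPM in p16-null DMD, 133000 to 149900 CPM in WT). All 10 macrophage markers rose (1771 to 4925 CPM in p16-null DMD, 429 to 485 CPM in WT), as did all 8 fibroblast markers (6473 to 17800 CPM in p16-null DMD, 2312 to 2464 CPM in WT) and all 5 markers of regenerating fibres. All 4 adipocyte markers rose too, with 43.7 to 716.6 CPM in p16-null DMD and 27.96 to 52.76 CPM in WT, and here p16-null DMD replicate 4 (43.7 CPM) lay within the WT range. Of 7 slow fibre markers 1 fell and 1 rose, and of 5 endothelial markers 2 fell and 1 rose. Relative to the fast fibre markers, the summed subunits were 3.87 to 8.49% in p16-null DMD and 4.35 to 5.37% in WT. The part of these cell types in the lower levels of the complex was not tested.

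The order of the genes was led again by Ndufs1, with 129.1, 153 and 240.6 CPM (lowest, median and highest) in p16-null DMD, against 486, 673 and 511 CPM in WT (−1.72 ± 0.22, adjusted p = 1.7e-05), and by Ndufs7 (−1.62 ± 0.18) and Ndufab1 (−1.61 ± 0.14). Ndufb3, an accessory subunit of the membrane arm, followed (−1.55 ± 0.18). At the other end Ndufa12 (−0.90 ± 0.16), Ndufv3 (−0.92 ± 0.13) and Ndufa7 (−0.92 ± 0.13) stood at 53.7%, 53.0% and 52.9% of the WT level. These percentages depended on the scaling. In TPM Ndufa12, Ndufv3 and Ndufa7 averaged 285.5, 99.3 and 134.3 in p16-null DMD, against 307.9, 138.8 and 153.5 in WT. The groups overlapped in TPM for Ndufa12 and Ndufa7, but not for Ndufv3. The lower Ndufs5 entry, which had not passed in DMD, had a log2 fold change of −0.82 ± 0.26 in p16-null DMD and passed (adjusted p = 0.016), though not without WT replicate 2 (−0.71, adjusted p = 0.075) or 3 (−0.77, adjusted p = 0.059). Whether this differs from DMD is given by the direct comparison, where its log2 fold change was −0.35 with a 95% interval of −0.91 to 0.21.

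Among the factors, Ndufaf2 had the largest fall in p16-null DMD (−1.57 ± 0.23, adjusted p = 5.7e-05), with 3.45, 4.93 and 7.08 CPM (lowest, median and highest) in p16-null DMD and 12.9, 17.3 and 15.2 CPM in WT. Ndufaf6 fell by 1.44 ± 0.23 and Ndufaf1 by 1.37 ± 0.21 on the log2 scale. Ndufaf7 had the smallest change (−0.46 ± 0.17, adjusted p = 0.036, but 0.15 with libraries scaled by their totals), and its p16-null DMD and WT libraries overlapped, as did those of Ndufaf4 (−0.96 ± 0.25). Ndufaf7 did not pass when any 1 of the 3 WT libraries was left out, or p16-null DMD replicate 3, 4, 5 or 6 (adjusted p from 0.052 to 0.12). Nor did it pass with replicate number as a block (−0.32, adjusted p = 0.22). Numbers 4, 5 and 6 occur only in p16-null DMD, so the block takes these libraries out of the contrast. For 5 of 7 factors every p16-null DMD library was below every WT library in CPM, against 21.5% of all genes. In TPM the libraries of Ndufaf3, Ndufaf5 and Ndufaf6 overlapped too. With libraries scaled by their totals 4 of the 7 factors fell. On log2 TPM 3 fell, or 2 with no filter on low values. The 7 mitochondrial DNA genes of the complex fell as well (median −1.49).

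The direct comparison of p16-null DMD with DMD addresses what the loss of p16 adds in dystrophic muscle. No complex I gene passed the test: 0 of 34 subunits and 0 of 7 assembly factors were called by edgeR, 0 by DESeq2 and 0 by limma on log2 TPM, and at an unadjusted p under 0.05 there were 3 subunits and 0 factors. Over all genes 0.00676% were called lower and 0% higher, and 5.16% had an unadjusted p under 0.05. Without DMD replicate 1 the calls over all genes were 80 lower and 5 higher (0.531% lower), still with 0 complex I members among them. The subunits had a median log2 fold change of 0.16 (28 above 0, 6 below 0), beside 0.02 for all genes, of which 53.2% were above 0 and 46.8% below. Without DMD replicate 3, the library with the lowest subunit sum, the subunit median was 0.03. The 7 core subunits were all above 0, with a median of 0.35 (range 0.18 to 0.43).

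Ndufs8 had 37.0, 47.2 and 63.4 CPM (lowest, median and highest) in p16-null DMD and 39.2, 38.2 and 30.6 CPM in DMD, with a log2 fold change of 0.43 (95% interval 0.06 to 0.80, adjusted p = 0.84). Ndufa9 had 83.2, 99.3 and 136.6 CPM in p16-null DMD and 90.2, 66.0 and 74.0 CPM in DMD (0.43, interval 0.08 to 0.77, adjusted p = 0.82). Ndufb4 had 66.6, 78.3 and 82.9 CPM in p16-null DMD and 67.7, 60.8 and 55.2 CPM in DMD (0.32, interval 0.07 to 0.57, adjusted p = 0.80). These are the 3 subunits with an unadjusted p under 0.05, and in each of them the libraries of both groups overlapped. Among the core, Ndufs1 (0.39, interval −0.11 to 0.88) and Ndufv1 (0.35, interval −0.05 to 0.75) followed Ndufs8. Subunits below 0 included Ndufa3 (−0.21, interval −0.62 to 0.21), Ndufb3 (−0.12, interval −0.52 to 0.27) and Ndufa2 (−0.09, interval −0.43 to 0.25).

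The intervals bound what these libraries could have shown. All 34 subunit intervals and all 7 factor intervals lay within 1 log2 unit on either side of 0, so the subunits' intervals leave room for differences up to 0.88 upward and 0.91 downward, and 31 of the 34 subunit intervals held 0. Among the factors Ndufaf6 was the lowest (−0.41, interval −0.92 to 0.09) and Ndufaf1 the highest (0.28, interval −0.20 to 0.75). Slow fibre markers had a median log2 fold change of 1.08 in the same comparison, with 0 of 7 called by edgeR and 2 at an unadjusted p under 0.05, and summed levels of 728 to 2133 CPM in p16-null DMD and 442 to 1281 CPM in DMD. Their part in the values of the core subunits was not tested.

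In WT muscle most subunits were lower at 18 months than at 3 months. Of 34 tested subunits 27 fell and 0 rose (10.1% of all genes fell and 9.31% rose), with a median log2 fold change of −0.65 (range −0.91 to −0.17) beside 0.00 for all 13487 genes tested. The summed subunits had 4726, 5096 and 5836 CPM at 18 months, against 6889, 7414 and 9334 CPM at 3 months. These sums did not overlap. In CPM, every library of 18 months was below every library of 3 months in 28 of 34 subunits. This held for 18.4% of all genes. The count depended on single libraries and on the scaling. Without WT replicate 1 of 18 months 14 subunits fell, with libraries scaled by their totals 15, and on log2 TPM 3, 2 or 5, while the subunit median stayed below 0 (−0.56, −0.41, and −0.30 to −0.28).

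Ndufb4 had 126.8, 126.1 and 160.5 CPM at 18 months, against 236, 251.2 and 292.3 CPM at 3 months, and its log2 fold change of −0.91 ± 0.13 was the lowest of the subunits (adjusted p = 3e-04). Ndufv2 had 319, 329.2 and 364 CPM at 18 months and 518, 563 and 693 CPM at 3 months (−0.80 ± 0.13, adjusted p = 7.1e-04). Ndufa3 (−0.80 ± 0.13) and Ndufa8 (−0.80 ± 0.16), both of the membrane arm, followed. No library of 18 months overlapped with those of 3 months in these 4 genes.

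Ndufs1, which had the largest change in DMD, was near the other end here and had 471, 453 and 504 CPM at 18 months and 548, 664 and 534 CPM at 3 months (−0.28 ± 0.13, adjusted p = 0.14). Ndufv1 had a log2 fold change of −0.27 ± 0.16 (adjusted p = 0.27), Ndufs4 of −0.17 ± 0.12 (adjusted p = 0.36) and Ndufa7 of −0.32 ± 0.19 (adjusted p = 0.26), and on log2 TPM all 4 were above 0. Ndufb7 and both Ndufs5 entries did not pass either. Of the core, 5 of 7 fell, among them Ndufs8 (−0.75 ± 0.19), Ndufs3 (−0.70 ± 0.12) and Ndufs7 (−0.69 ± 0.18). Without WT replicate 1 of 18 months Ndufs8 (adjusted p = 0.060), Ndufs7 (0.075) and Ndufa9 (0.070) did not pass, nor did Ndufs8 (0.051) and Ndufs7 (0.054) without WT replicate 2 of 18 months. Across the 34 subunits the log2 fold change with age and that in DMD had a Pearson correlation of 0.15, beside 0.42 over 13428 genes tested in both. These comparisons share no library, and genes of 1 complex are not independent points, so this is a description.

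No assembly factor passed the test with age. By edgeR 0 of 7 were called, and 1 (Ndufaf4) had an unadjusted p under 0.05, beside 31.4% of all genes. DESeq2 and limma on log2 TPM also called 0. Their median log2 fold change was −0.25 (range −0.40 for Ndufaf4 to 0.23 for Ndufaf1), but −0.02 with libraries scaled by their totals and 0.06 on log2 TPM. The difference between factors and subunits was not tested. Ndufaf4 had 24.5, 25.6 and 28.3 CPM at 18 months, against 28.9, 39.2 and 36.0 CPM at 3 months (−0.40 ± 0.15, adjusted p = 0.078), and passed without WT replicate 1 of 3 months (−0.51, adjusted p = 0.034). Ndufaf1 had 16.7, 16.7 and 19.6 CPM at 18 months and 12.3, 18.5 and 14.6 CPM at 3 months (0.23 ± 0.19, adjusted p = 0.44). The values of the other 5 were −0.33 for Ndufaf7, −0.32 for Ndufaf2, −0.25 for Ndufaf6 and −0.18 each for Ndufaf3 and Ndufaf5. Among the 12 factors with other names 5 fell with age, led by Tmem126a (−1.10 ± 0.14), with 42.8, 49.1 and 45.1 CPM at 18 months and 83.5, 96.2 and 115.5 CPM at 3 months.

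Around complex I, 28 of 40 nuclear genes of complexes II to V fell with age (median −0.66), 20 of 70 genes of the mitochondrial ribosome fell and 1 rose, and 1 of 7 mitochondrial DNA genes of the complex fell (median −0.39). Perm1 fell by 0.98 ± 0.17 (log2) with age, to 100.5, 79.5 and 129.2 CPM at 18 months against 173, 219.6 and 222.6 CPM at 3 months, and Esrra fell by 0.53 ± 0.16. Of 9 regulators these 2 fell, 1 rose and 6 did not pass. Ppargc1a had a log2 fold change of 0.05 ± 0.21. Esrrg averaged 13.3 ± 2.36 CPM at 18 months and 8.63 ± 1.02 CPM at 3 months (SD, n = 3 each). In the same libraries 6 of 7 fast fibre markers fell (76630 to 89370 CPM at 18 months, 128400 to 153600 CPM at 3 months), and all 10 macrophage markers (702 to 1031 CPM at 18 months, 397 to 607 CPM at 3 months) and all 5 markers of regenerating fibres rose (477 to 492 CPM at 18 months, 98.7 to 111.6 CPM at 3 months). Of 8 fibroblast markers 4 fell and 1 rose. Of 7 slow fibre markers 2 rose and 0 fell (674 to 2500 CPM at 18 months, 1041 to 1641 CPM at 3 months). Of 5 endothelial markers 2 fell and 0 rose, and 0 of 4 adipocyte markers passed. The part of these cell types in the fall of the subunits was not tested. Relative to the fast fibre markers, the summed subunits were 5.70 to 6.94% at 18 months and 5.37 to 6.08% at 3 months.

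The WT libraries of 9 months were not compared with the other ages in the design, and whether they were made together is not stated, so the 3 ages are set side by side with no test. Summed subunits averaged 7879 ± 1287 CPM at 3 months, 6543 ± 660 CPM at 9 months and 5219 ± 565 CPM at 18 months (SD, n = 3 each). In 32 of 34 subunits the mean CPM ran down from 3 over 9 to 18 months. The step from 9 to 18 months depended on the scaling. As a share of all counts, with no TMM, the subunits averaged 0.641 ± 0.0636%, 0.501 ± 0.0437% and 0.504 ± 0.0408% at 3, 9 and 18 months. Their summed TPM averaged 12070 ± 993, 10050 ± 538 and 9574 ± 764 at these ages. Neighbouring ages were often within their spread in CPM. Every library of 3 months was above every library of 9 months in 10 subunits. For 9 months above 18 months this held in 17 subunits. Ndufs4 was an exception in mean CPM, with 172.5 ± 14.9 at 3 months, 140.7 ± 9.37 at 9 months and 152.7 ± 6.87 at 18 months. The dystrophic groups lay below all ages. Summed subunits averaged 2572 ± 323 CPM in p16-null DMD (n = 6) and 2249 ± 337 CPM in DMD (n = 3), and in all 34 subunits the mean of WT at 18 months exceeded the means of both.

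Within the complex the balance of transcripts differed between groups in measures that need no scaling between libraries. The summed subunits stood in a nearly fixed ratio to the nuclear genes of complexes II to V, between 0.319 and 0.375 in all 18 libraries. The group means of this ratio were 0.338 ± 0.0136 in p16-null DMD, 0.349 ± 0.0224 in DMD, and 0.332 ± 0.00745, 0.332 ± 0.00266 and 0.331 ± 0.00373 in WT of 3, 9 and 18 months. The assembly factors as a share of the subunit counts did differ. This share was 3.00 to 3.94% in p16-null DMD and 3.57 to 4.25% in DMD, against 2.65 to 2.93% in WT of 9 months, and in WT of 3 months it was 2.16 to 2.37% and in WT of 18 months 2.84 to 3.12%. The core subunits made up 32.4 to 41.3% of the subunit counts in p16-null DMD and 31.1 to 37.4% in DMD, against 40.6 to 42.3% in WT of 9 months. In WT of 3 months they made up 37.6 to 42.6% and in WT of 18 months 41.4 to 42.4%. The DMD range did not overlap with that of WT of 9 months, and of the p16-null DMD libraries replicate 4 alone lay within it. Core genes and factors were sorted by function and the shares were computed after the fold changes were known, so no test is given.

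**Figure D3:**
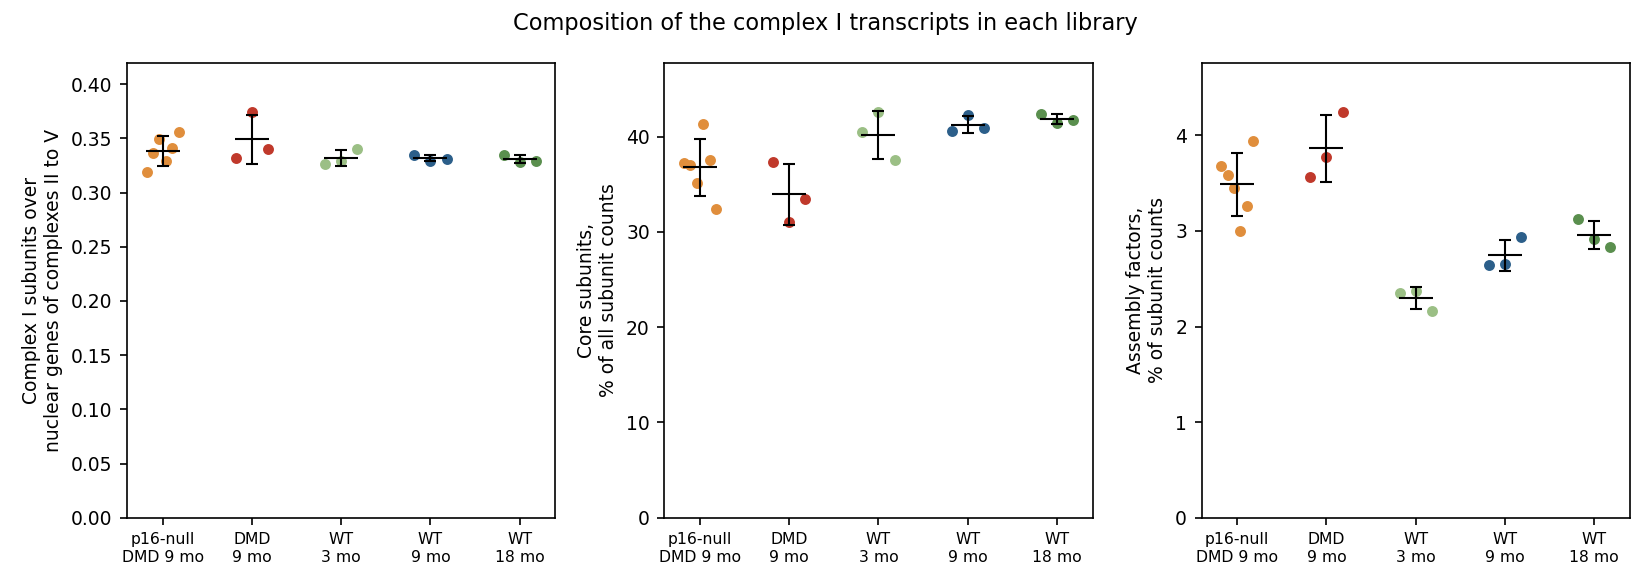
Ratio of summed complex I subunit counts to those of the nuclear genes of complexes II to V, core subunits as a percentage of subunit counts, and assembly factors as a percentage of subunit counts, in each library, with the mean and SD of each group. The ratio lies between 0.319 and 0.375 throughout, while the share of assembly factors is 3.57 to 4.25% in DMD against 2.65 to 2.93% in WT of 9 months.

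Across the subunits, those with the higher counts had the larger fall in DMD. The Pearson correlation of the log2 fold change in DMD over WT with the log2 mean level over all libraries was −0.71 over 34 subunits, beside −0.33 over 14540 genes. Per length this was not seen: over the subunits Spearman's rho was −0.66 with the level in CPM and −0.04 with that in TPM. Over all genes these values were −0.3 and −0.29. Pearson's r was −0.47 with relative transcript length, the counts over TPM, beside 0.02 over all genes. With age, the correlation with level was 0.09 over the subunits. The level is taken from the same libraries as the fold change and the genes share libraries and depth, so these are descriptions. Per length, Ndufb4 (753 ± 52.6 TPM), Ndufb8 (740 ± 82.9 TPM) and Ndufv2 (686 ± 50.7 TPM) were the highest of the subunits in WT of 9 months, and Ndufc1 (52.2 ± 6.13 TPM), Ndufab1 (87.3 ± 10.4 TPM) and Ndufs8 (84.0 ± 13.3 TPM) were among the low ones (SD, n = 3).

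**Figure D4:**
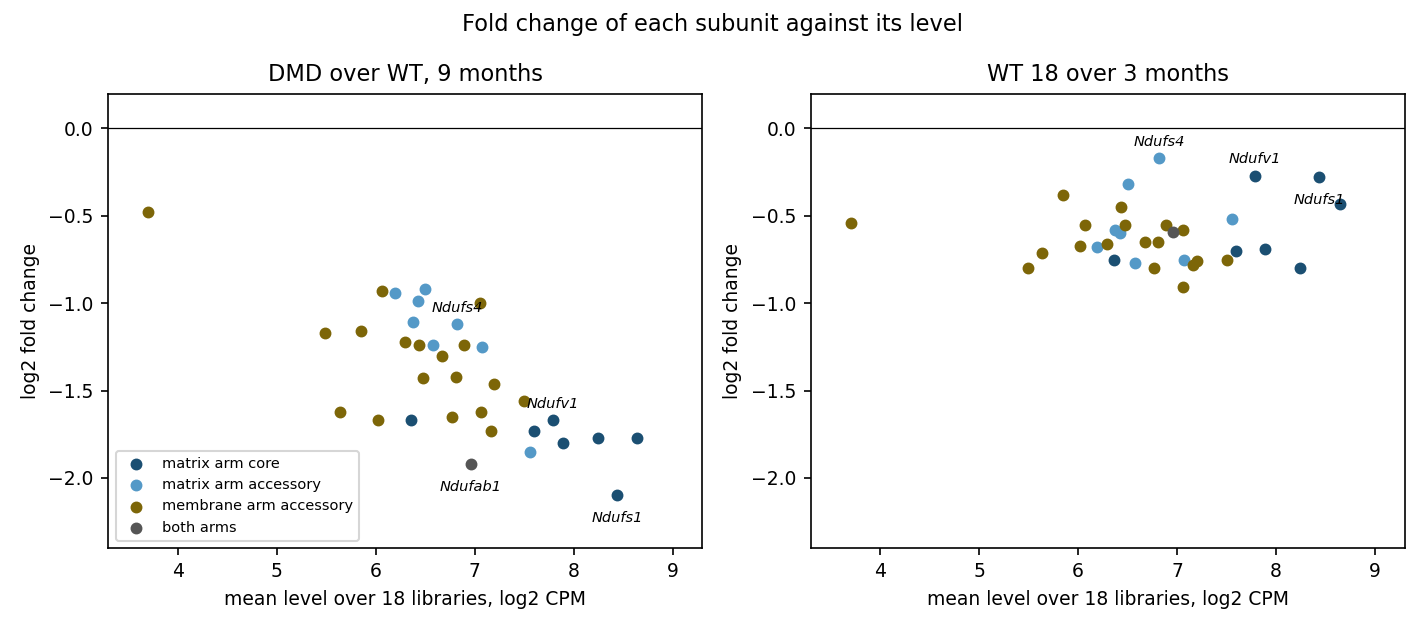
Log2 fold change of each of the 34 subunits (vertical axis) against the log2 of its mean CPM over 18 libraries, for DMD over WT at 9 months and for WT at 18 over 3 months. For DMD over WT the points run down to the right (correlation −0.71), and with age they do not (0.09).

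The entries named under Nduf that were counted apart behaved as follows. Ndufa4, a subunit now assigned to complex IV, had 141.6, 197.5 and 106.9 CPM in DMD, against 357, 404 and 399 CPM in WT (−1.37 ± 0.22, adjusted p = 1.6e-04), and it fell in p16-null DMD (−1.25 ± 0.18) and with age (−0.73 ± 0.13, adjusted p = 0.001). Its relative Ndufa4l2, known as a hypoxia-induced gene, had 5.83, 7.31 and 8.28 CPM in DMD and 15.2, 15.7 and 8.55 CPM in WT (−0.87 ± 0.27, adjusted p = 0.015). This call was lost in 3 of the 12 fits with 1 library left out. Over these 12 fits the log2 fold change ran from −1.1 to −0.73. In TPM the groups overlapped, with 14.54 to 22.07 in DMD (mean 17.47) and 12.95 to 21.89 in WT (mean 18.7). Ndufa4l2 fell with age as well (−0.69 ± 0.22, adjusted p = 0.038). The call with age was lost without WT replicate 1 of 3 months (−0.48, adjusted p = 0.16) or any library of 18 months. The higher of the 2 Ndufa10l1 entries fell in DMD (−1.57 ± 0.19, adjusted p = 1.4e-05) and in p16-null DMD (−1.29 ± 0.15), and had a log2 fold change of −0.29 ± 0.12 with age (adjusted p = 0.11). The lower Ndufa10l1 entry, at most 6.24 CPM in any library, passed in 0 of the 4 comparisons. The entry Ndufv3-ps1, named as a pseudogene, fell in DMD (−1.46 ± 0.25), in p16-null DMD (−1.61 ± 0.21) and with age (−0.87 ± 0.15), and reads of Ndufv3 could have been assigned to it.

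Of the 48 entries, 46 had enough counts to be tested. Ndufs6, a subunit of the matrix arm, had between 0 and 2.16 CPM, and a further Ndufb2 entry had 0 counts in all 18 libraries. RefSeq lists Ndufs6 as another name of a pseudogene, so the counts under this symbol may not be those of the working gene.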

How the data were processed

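RNA of rat tibialis anterior was sequenced in 18 libraries. The deposited tables hold estimated counts per gene (expected counts, of which 4.5% were not whole) and TPM values, both made by the authors. The submitters' processing notes name STAR 2.7.10b, RSEM 1.3.3, Trimmomatic, FastQC and build mRatBN7.2. Annotation release and strandedness of counting: not given in the sources used here. RefSeq windows are of GRCr8 and were matched by symbol.

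Counts were rounded, filtered with filterByExpr and scaled by TMM, and tested with edgeR 4.0.16 (quasi-likelihood) in R 4.3.3. The 12 libraries of 9 months shared 1 fit (14801 genes, biological coefficient of variation 0.26) and the WT libraries of 3 and 18 months another (13487 genes, 0.176). P-values were adjusted over all genes of a fit (Benjamini-Hochberg). Standard errors are those of the log2 fold change, with 95% intervals.

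The members, lists and tests were chosen with earlier results of these data known. Named genes are core subunits, Ndufa9, the Ndufaf factors, Ndufa4, Ndufa4l2, members with low counts, and in each comparison the 4 subunits at either end; others stand for their list. Values of 1 member on its own are not reported here; it is part of the counts, medians and sums.

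Alternatives were DESeq2 1.42.0, RLE scaling, scaling by library totals, limma 3.58.1 on log2 TPM (pseudocount 1 or 0.1), other filters (none, or 5 CPM in 3 libraries), other sets of libraries in the fit, a fit without the 50 most abundant genes, a replicate block, and each library left out. The fits were tested on simulated counts. All replicate pairs differed beyond counting error. Plots used pandas 2.3.3, numpy 2.4.6 and matplotlib 3.10.9.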

Additional observations from a re-analysis of the deposited data

How the results depend on the processing

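The subunit counts kept within 1.5 times under all alternatives for DMD against WT (24 to 33 of 34) and p16-null DMD against WT (23 to 34 of 34), and stayed at 0 for p16-null DMD against DMD. With library totals in place of TMM, the median of all genes went to 0.76 for DMD against WT and 0.72 for p16-null DMD against WT (0.11 each with TMM) and to 0.24 for 18 against 3 months (0.00 with TMM), and the share of lower genes among all called genes was 13.9% and 13.4% (45.2% each with TMM) and, with age, 652 genes were lower and 2609 higher (52.1% lower with TMM). On log2(TPM + 1) these shares were 11.2%, 9.80% and 10.2%. Relative to the median of all genes, the subunit median was −1.53 with TMM and −1.55 with totals for DMD, −1.42 with both for p16-null DMD, and −0.65 with both for age. A change of scaling shifts all genes of a comparison nearly alike, so these near-equal values were fixed in advance. On log2(TPM + 1) the values were −1.39, −1.18 and −0.59 for DMD, p16-null DMD and age. With no filter on low values they were −1.18, −0.98 and −0.48.

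Counts that moved by more than 1.5 times were these. Of 7 assembly factors, 3 fell in DMD with totals and 2 in each TPM analysis, against 7. In p16-null DMD 4 fell with totals, 3 on log2(TPM + 1) and on log2(TPM + 0.1), and 2 with no filter on low values, against 7. Of the subunits, 15 fell with age with totals, 3 and 2 on log2 TPM with a pseudocount of 1 and 0.1, and 5 with no filter on low values, against 27. With each library left out in turn this count ran from 14 (without WT replicate 1 of 18 months) to 28, and that of the factors from 0 to 1. In 1 fit of all 18 libraries 20 subunits fell with age. For p16-null DMD against DMD, DESeq2 called 13 genes lower and 2 higher over all genes, against 1 and 0 by edgeR, and without DMD replicate 1 edgeR called 80 lower and 5 higher. Why the counts moved was not tested.

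Values that changed sign did not pass under the alternative. With totals, the log2 fold change of the lower Ndufs5 entry in DMD was 0.14, that of Ndufaf7 in p16-null DMD was 0.15, and with age those of Ndufaf3 and Ndufaf5 were 0.06 and that of Ndufs4 was 0.07. On log2 TPM, Ndufaf7 was 0.08 or 0.09 in DMD and 0.16 or 0.17 in p16-null DMD, and the lower Ndufs5 entry was 0.19 in DMD. On the same scale, the values with age were 0.16 or 0.17 for Ndufaf3, 0.17 for Ndufaf5, 0.06 for Ndufaf6, 0.03 for Ndufaf7, 0.07 for Ndufs1, 0.09 for Ndufv1, 0.01 for Ndufa7 and 0.18 for Ndufs4. In p16-null DMD against DMD, leaving out 1 library gave log2 fold changes of −0.19 to 0.16 for Ndufaf2, −0.23 to 0.12 for Ndufaf4, −0.07 to 0.37 for Ndufa4, −0.34 to 0.14 for Ndufb3 and −0.18 to 0.11 for Ndufa2.

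Replicate numbers did not pair the libraries: correlations of same-numbered libraries ran from −0.22 to 0.13. Numbers 4, 5 and 6 occur only in p16-null DMD, so with the block its contrasts rested on replicates 1, 2 and 3. With the replicate block, 33 and 34 subunits fell in DMD and p16-null DMD against WT, 0 differed between p16-null DMD and DMD (median 0.02, against 0.16 without the block), and 30 fell with age. The block turned Ndufaf3 to −0.04 and Ndufaf5 to −0.03 in p16-null DMD against DMD, and Ndufaf7 did not pass in p16-null DMD against WT. Low counts limit Ndufs6 and the lower Ndufs5 and Ndufa10l1 entries.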
